A study of Arabidopsis thaliana with 10 samples.

Results

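The genes described here are the class III peroxidases of Arabidopsis thaliana (PER or PRX genes), taken as the rows of the deposited expression tables whose locus is on a list of 59 family members. Of these 59 genes, 43 had a row among the 17371 genes of the 4 h table and 47 among the 17433 genes of the 10 d table. In all, 50 had a row in at least 1 table, out of 18411 genes, and 40 had one in both. The remaining 9 were not analysed here.

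Class III peroxidases are secreted haem enzymes that use hydrogen peroxide to oxidise phenolic compounds in the cell wall. By joining monolignols and wall proteins they stiffen walls, and by making reactive oxygen species they can also loosen them. Many family members are expressed in roots, where single members are known for work in root hairs, in the Casparian strip of the endodermis and in lignified vessels. NADPH oxidases of the plasma membrane (RBOH proteins) feed them, through superoxide, with hydrogen peroxide.

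RNA was sequenced from whole Col-0 seedlings of lines named DIG1, DIG2 and GFP, all of them given dexamethasone, a synthetic glucocorticoid that switches on transgenes built to respond to it. DIG1 and DIG2 are known as regulators of the response to abscisic acid, the hormone of drought and seed dormancy, and GFP is the control line. There were 10 libraries in 5 groups of 2. DIG1, DIG2 and GFP seedlings of 3 d of age had grown in the dark and received 10 µM dexamethasone for 4 h, also in the dark. DIG1 and GFP seedlings of 10 d of age had grown in the light on plates holding 500 nM dexamethasone for all 10 d, a dose that the labels' growth text gives in mM and their treatment text in nM. The driver and the number of independent lines of each transgene, and whether replicates were separate cultures, are not given in the sources used here, so p-values measure the spread between these libraries alone. No library came from untreated seedlings, so a difference that a line had before dexamethasone cannot be told apart from one that followed it.

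Libraries held between 9752865 and 15476754 reads on listed genes at 4 h and between 11703363 and 17559515 at 10 d, as worked out from the deposited values, which are RPKM (reads per kilobase of gene, relative to the size of the library). The gene known as DIG1, AT3G48510, stood between 1438 and 1891 RPKM in the 4 DIG1 libraries and at no more than 1.90 in any other, and AT5G50360, known as DIG2, reached 4879 and 2685 RPKM in DIG2 and at no more than 2.54 in the other 4 h libraries. The titles of the DIG1 samples print a different locus, AT3G45810, for which no value was used here. At 10 d the 2 DIG1 libraries were unlike each other in root hair genes: 9 root hair marker genes summed to 28.9 RPKM in replicate 1 and 1.29 in replicate 2, against 63.7 and 74.0 in GFP. In replicate 2 the markers RHS13, PRP1 and XTH14 were at 0. Results that rest on this pair of libraries are given below with and without each.

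The family members were alike in build and mostly unlike in sequence. In the RefSeq annotation (TAIR10.1) the 59 proteins were 310 to 372 residues long with a median of 329, and 39 of the genes had 4 coding exons; AT3G28200 and AT5G40150 had 1 each. Protein identity over the 1711 pairs ranged from 28.5% to 100%, with a median of 38.5%. Chromosome 5 carried 20 members, and chromosomes 1, 2, 3 and 4 carried 11, 10, 8 and 10. Several members sit side by side. Of the measured members, those at or above 85% identity were PRXCA (AT3G49110) and PRXCB (AT3G49120) at 92.7%, AT2G38380 and AT2G38390 at 89.4%, AT4G37520 and AT4G37530 at 89.4%, and AT3G32980 at 89.0% to PRXCB and 87.9% to PRXCA. The longest stretch of coding sequence that was letter for letter the same was 111 bases for PRXCA and PRXCB, 67 for AT4G37520 and AT4G37530 and 62 for AT2G38380 and AT2G38390. How reads that match both genes of such a pair were counted is not given in the sources used here, so their separate values are uncertain to that extent.

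The start of the coding sequence of AT4G37520 and AT4G37530 is shown because the ratio of these neighbours, described below, differed between the lines. Over their first 120 coding bases (TAIR10.1, plus strand, chr4:17631704-17631823 and chr4:17634786-17634905) they differ at 15 bases, in capitals, and are 87.5% identical.
AT4G37520: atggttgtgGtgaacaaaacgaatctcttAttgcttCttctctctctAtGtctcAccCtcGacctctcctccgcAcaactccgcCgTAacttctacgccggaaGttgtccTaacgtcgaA
AT4G37530: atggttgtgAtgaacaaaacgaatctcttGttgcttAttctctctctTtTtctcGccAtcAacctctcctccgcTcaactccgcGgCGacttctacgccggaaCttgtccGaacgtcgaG

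Promoters were searched on both strands, over 300 bases before the annotated start, for the abscisic acid response element core ACGTG, the G-box CACGTG and the root hair element, a longer degenerate motif of root hair genes that can overlap the core. The core was in 21 of 59 members (35.6%), against 25.6% of 27444 protein-coding genes, and in 14 of the 50 measured members (28.0%), against 26.3% of all measured genes. The G-box was in 0 of 59, against 7.09% of all genes, and these letters are simply not in those windows. The root hair element was in 3 members, RHS18 (AT5G22410), AT2G35380 and AT3G01190, against 0.915% of all genes. Those 3 promoters are shown with the element in capitals, since root hair genes differ between the libraries below; all 3 also contain the core, which overlaps the element. The fourth is that of PRX71 (AT5G64120), which was higher in both DIG lines at 4 h, and its capitals mark the core, which reads CACGT here because it lies on the opposite strand. All are RefSeq sequence (TAIR10.1), printed 5′ to 3′ along the gene: RHS18 from chr5:7426010-7426309 (plus strand), AT2G35380 from chr2:14892299-14892494 (plus strand, 196 bases, up to the next gene), AT3G01190 from chr3:68666-68965 (minus strand) and PRX71 from chr5:25661008-25661307 (minus strand). A match is a description of sequence and was not tested as a binding site.
RHS18: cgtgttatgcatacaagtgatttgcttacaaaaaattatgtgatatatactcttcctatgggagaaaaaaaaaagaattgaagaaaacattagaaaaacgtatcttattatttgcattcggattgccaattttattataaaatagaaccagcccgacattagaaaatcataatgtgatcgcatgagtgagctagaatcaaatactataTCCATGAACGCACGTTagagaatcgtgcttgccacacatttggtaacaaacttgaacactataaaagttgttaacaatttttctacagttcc
AT2G35380: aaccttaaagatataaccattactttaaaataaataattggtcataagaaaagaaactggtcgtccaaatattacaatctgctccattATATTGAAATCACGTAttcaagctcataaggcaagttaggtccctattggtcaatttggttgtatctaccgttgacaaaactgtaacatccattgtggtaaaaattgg
AT3G01190: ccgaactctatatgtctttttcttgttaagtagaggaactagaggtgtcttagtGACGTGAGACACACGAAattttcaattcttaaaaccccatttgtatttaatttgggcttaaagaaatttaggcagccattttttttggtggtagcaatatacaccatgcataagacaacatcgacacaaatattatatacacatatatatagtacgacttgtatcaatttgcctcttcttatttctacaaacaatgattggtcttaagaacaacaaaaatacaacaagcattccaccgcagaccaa
PRX71: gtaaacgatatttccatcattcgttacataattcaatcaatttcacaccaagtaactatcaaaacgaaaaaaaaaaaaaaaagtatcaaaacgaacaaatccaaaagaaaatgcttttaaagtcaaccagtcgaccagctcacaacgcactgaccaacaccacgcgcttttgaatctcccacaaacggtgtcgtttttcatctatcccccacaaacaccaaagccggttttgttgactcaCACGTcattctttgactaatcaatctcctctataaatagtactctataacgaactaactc

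In dark-grown seedlings a few peroxidases made up most of the family's expression. Summed over the 43 measured members, the level was 3733 and 3439 RPKM in DIG1, 4055 and 4058 in DIG2 and 3635 and 3858 in GFP. The DIG2 libraries were above the other 4 and the DIG1 and GFP libraries overlapped. AT2G37130, annotated with a role in defence against fungi, had the highest mean in every group: 1060.1 and 927 RPKM in DIG1, 1201 and 1093 in DIG2 and 1079 and 1269 in GFP. PRXR1 (AT4G21960) came next, at 622 and 525 RPKM in DIG1, 636 and 622 in DIG2 and 529 and 604 in GFP. After it came AT5G64100, at 436 and 418 RPKM in DIG1, 492 and 510.1 in DIG2 and 413 and 345 in GFP. These 3 genes together held 55.6% of the family's summed mean in DIG1, 56.1% in DIG2 and 56.6% in GFP. The next in mean level were AT3G32980, PRX72 (AT5G66390), a lignin-forming peroxidase, and AT3G01190, and none of these 6 passed the test against GFP in either line (adjusted p from 0.0961 to 0.973).

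**Figure D1:**
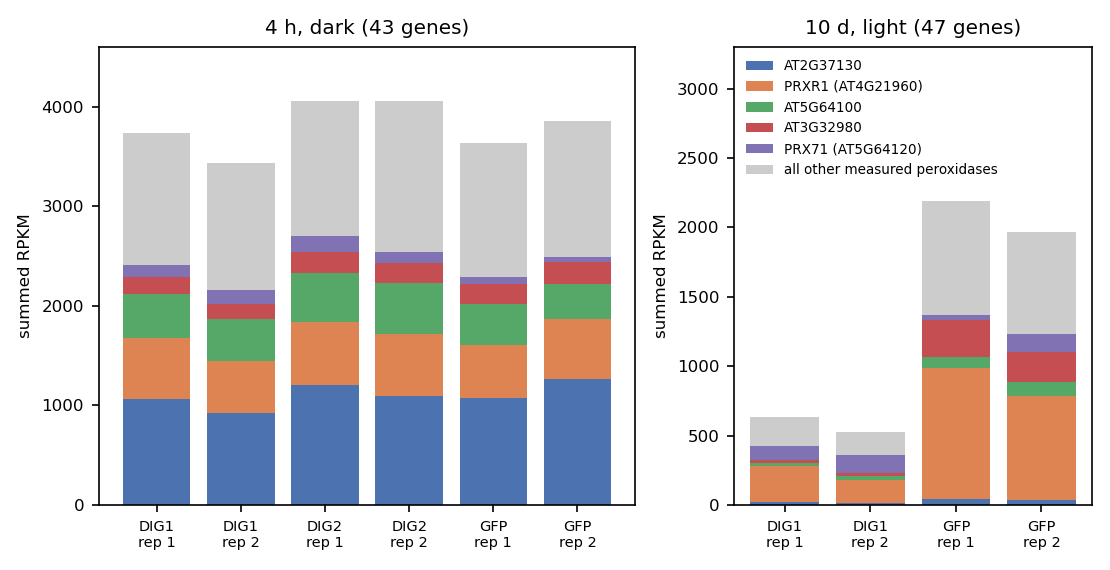
Summed RPKM of the measured peroxidases in each library (bars from 0; rep is replicate), with 5 abundant genes coloured; left, the 4 h libraries in the dark, right, the 10 d libraries in the light, each table on its own axis because they were normalized separately. The 6 libraries at 4 h lie between 3439 and 4058 RPKM, while at 10 d the DIG1 libraries stand at 634 and 529 RPKM and the GFP libraries at 2189 and 1967.

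After 4 h, 8 peroxidases differed between DIG1 and GFP, with 4 higher and 4 lower out of 43. The test was limma on log2(RPKM + 0.5), two-sided and adjusted over all genes of the table (Benjamini-Hochberg), called at an adjusted p under 0.05. By the same test 3.01% of the 17371 genes were higher in DIG1 and 5.54% lower, against 9.3% and 9.3% of the members. The median log2 change of the 43 members was -0.16, beside -0.003 over all genes. In the authors' deposited table, 4 members were higher and 7 lower at an FDR under 0.05, and all 8 calls made here were among them; over all genes that table had 4.14% higher and 7.08% lower.

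PER4 (AT1G14540) had the largest log2 change of the family in DIG1 at 4 h. PER4 had 14.2 and 16.7 RPKM in DIG1, 9.51 and 8.98 in DIG2 and 5.29 and 3.32 in GFP. The 3 groups did not overlap, with DIG1 highest and GFP lowest. Its log2 change against GFP was 1.76 ± 0.19 (SE) in DIG1 (limma adjusted p = 0.000591) and 1.05 ± 0.19 in DIG2 (limma adjusted p = 0.00615). Both calls held without any 1 of the libraries compared (limma adjusted p up to 0.0121 and 0.0394).

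PRX71, a wall-bound peroxidase of lignification that is induced by hypo-osmolarity, rose in both lines. PRX71 had 118 and 141 RPKM in DIG1, 159.9 and 117 in DIG2 and 70.6 and 48.4 in GFP. Every DIG1 and DIG2 library was above both GFP libraries. The log2 change was 1.13 ± 0.19 in DIG1 (limma adjusted p = 0.00565) and 1.22 ± 0.19 in DIG2 (limma adjusted p = 0.00293). Without DIG1 replicate 2 the DIG1 call was lost (limma adjusted p = 0.0587), and the DIG2 call held without any 1 library (up to 0.0231).

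The other members that rose in DIG1 were PRXCB, a wall peroxidase of cell elongation that also makes hydrogen peroxide in defence, and AT4G37520. PRXCB stood at 86.7 and 71.4 RPKM in DIG1, 63.3 and 45.6 in DIG2 and 44.3 and 52.6 in GFP, with a log2 change of 0.70 ± 0.16 in DIG1 (limma adjusted p = 0.0237). DIG1 was above the other lines, and DIG2 and GFP overlapped (limma adjusted p = 0.567). AT4G37520 stood at 35.2 and 33.5 RPKM in DIG1, 32.4 and 33.2 in DIG2 and 25.2 and 27.3 in GFP, and rose by 0.38 ± 0.09 in DIG1 and 0.32 ± 0.09 in DIG2 on the log2 scale (limma adjusted p = 0.031 and 0.0453). These small changes lay outside the spread of the libraries, but each of the 3 calls was lost without any 1 of the libraries compared (limma adjusted p from 0.0533 to 0.253).

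Of the 4 members that fell in DIG1, RHS19 (AT5G67400) is named for its specific expression in root hairs. RHS19 had 7.09 and 5.42 RPKM in DIG1, 7.35 and 11.3 in DIG2 and 10.06 and 14.0 in GFP. DIG1 lay below GFP without overlap, by a log2 change of -0.88 ± 0.22 (limma adjusted p = 0.0355), and DIG2 overlapped GFP (-0.36 ± 0.22, limma adjusted p = 0.304). AT1G30870 stood at 3.81 and 3.53 RPKM in DIG1, 4.32 and 6.99 in DIG2 and 6.91 and 9.15 in GFP, and fell by 1.02 on the log2 scale in DIG1 (SE 0.22, limma adjusted p = 0.0179). AT3G21770 was at 28.2 and 23.9 RPKM in DIG1, 28.3 and 33.1 in DIG2 and 36.4 and 42.2 in GFP, and fell by 0.59 in DIG1 (SE 0.12, limma adjusted p = 0.0168). AT4G30170 was at 98.2 and 93.3 RPKM in DIG1, 99.0 and 131 in DIG2 and 126 and 149.5 in GFP, and fell by 0.52 in DIG1 (SE 0.14, limma adjusted p = 0.048). In all 4 genes both DIG1 libraries were below both GFP libraries. In the same libraries 10 root hair markers summed to 32.6 and 34.3 RPKM in DIG1, against 59.5 and 79.8 in GFP, and their part in these results was not tested. The call of AT4G30170 was lost without any 1 of the libraries compared, those of RHS19 and AT1G30870 without either DIG1 library or GFP replicate 2, and that of AT3G21770 without DIG1 replicate 2 or GFP replicate 2 (limma adjusted p up to 0.317).

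In DIG2 at 4 h, 5 of 43 members were higher than in GFP (11.6%, beside 7.37% of all genes) and 2 were lower (4.65%, beside 7.48%), with a median log2 change of -0.03 for the members and -0.008 for all genes. At an FDR under 0.05 the authors' deposited values had 7 higher and 5 lower, beside 9.38% and 9.41% of all genes. The DIG2 comparison uses the same GFP libraries as that of DIG1. AT4G11290 was high in DIG2 alone among the 3 lines. Its level was 27.0 and 29.5 RPKM in DIG1, 47.6 and 46.5 in DIG2 and 24.9 and 32.2 in GFP. DIG2 was above all other libraries, and DIG1 lay within the range of GFP. Its log2 change against GFP was 0.72 ± 0.12 in DIG2 (limma adjusted p = 0.00459) and 0.00 in DIG1, and DIG1 was lower than DIG2 by a log2 difference of -0.73 ± 0.12 (limma adjusted p = 0.0166). The DIG2 call against GFP held without any 1 library (up to 0.0349), and the difference between the lines was lost without any 1 of its libraries (limma adjusted p from 0.0514 to 0.102).

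AT3G03670 rose slightly in DIG2, at 10.6 and 13.6 RPKM in DIG1, 14.0 and 15.6 in DIG2 and 10.4 and 10.15 in GFP (log2 change 0.50 ± 0.14 in DIG2, limma adjusted p = 0.0364, and lost without any 1 library, up to 0.157). AT3G49960, annotated as enriched in root hair cells, stood at 0.909 and 1.45 RPKM in DIG1, 0.746 and 1.22 in DIG2 and 1.96 and 3.43 in GFP. Every DIG1 and DIG2 library was below both GFP libraries, with a log2 change of -1.08 ± 0.28 in DIG2 (limma adjusted p = 0.0294) and -0.91 ± 0.28 in DIG1 (limma adjusted p = 0.081). AT2G18980 was at 8.29 and 5.88 RPKM in DIG1, 4.66 and 7.58 in DIG2 and 15.1 and 9.46 in GFP, and fell by 0.95 on the log2 scale in DIG2 (SE 0.26, limma adjusted p = 0.0371). Both calls were lost without DIG2 replicate 1, that of AT3G49960 also without GFP replicate 2 and that of AT2G18980 without GFP replicate 1 (limma adjusted p up to 0.233).

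**Figure D2:**
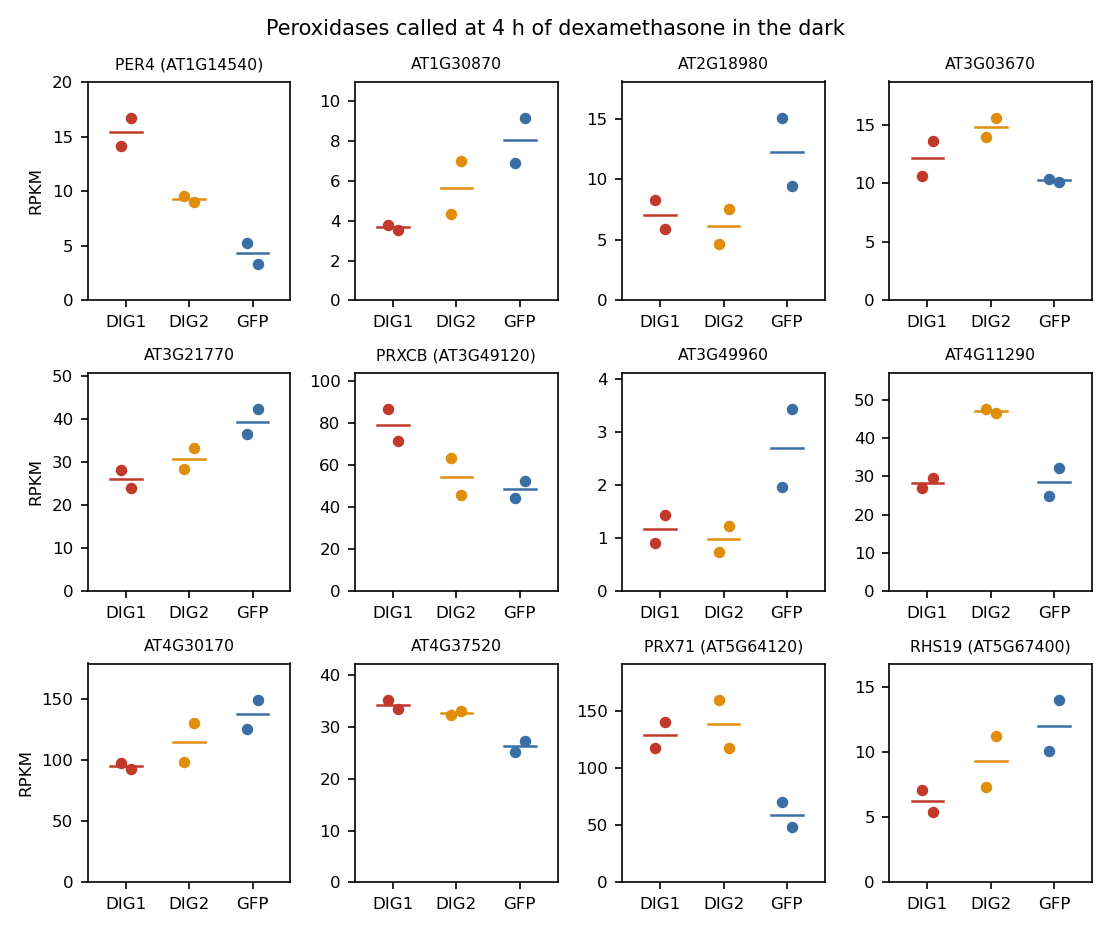
RPKM in each 4 h library of the 12 peroxidases called in any 4 h comparison (points, 1 a library; lines, means of n = 2; each vertical axis starts at 0). PER4 and PRX71 lie above GFP in both DIG lines, AT4G11290 is high in DIG2 at 47.6 and 46.5 RPKM, and AT1G30870 and RHS19 are lowest in DIG1.

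The direct comparison of DIG1 with DIG2 asked which members differed between the 2 lines. It called 1 of 43 members lower in DIG1, AT4G11290, and 0 higher (2.33% and 0%, beside 1.74% and 0.622% of all genes). At an unadjusted p under 0.05 limma gave 7 lower and 3 higher, and voom on recovered reads called 1 in each direction, PER4 being the one higher in DIG1. PER4 differed between DIG1 and DIG2 by a log2 difference of 0.71 ± 0.19 (limma adjusted p = 0.0895) and PRXCB by 0.55 ± 0.16 (limma adjusted p = 0.111). Over the 43 members the median log2 difference was -0.11, beside -5.31e-05 over all genes.

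After 10 d in the light most of the listed peroxidases were lower in DIG1. The 47 measured members summed to 634 and 529 RPKM in DIG1, against 2189 and 1967 in GFP. Of the 47, 38 were lower in DIG1 (80.9%, beside 31.2% of the 17433 genes) and 0 were higher (beside 31.9% of all genes); limma gave 0 higher at an unadjusted p under 0.05 and voom on recovered reads also gave 0. The median log2 change was -2.62 for the members and 0.05 for all genes. A called fall of at least 2 on the log2 scale was seen in 29 members (61.7%, beside 8.67% of all genes), and both DIG1 libraries were below both GFP libraries in 42 (89.4%, beside 40.2%). The deposited tables are labelled as holding genes with a CPM (reads scaled to library size) of 2 in at least 2 libraries, and 17 of the 47 members were under that level in both DIG1 libraries, compared with 0 in both GFP libraries. Those 17 were listed through GFP and had to be lower, so these counts describe the listed members and not the family, and their p-values support no direction. They are AT1G44970, AT1G49570, AT1G68850, AT2G18150, AT2G35380, AT2G38390, AT2G39040, PRXCA, Prx37, AT4G36430, PA2, AT5G14130, AT5G15180, PER64, AT5G51890, AT5G58390 and AT5G64110. A further 18 members reached a CPM of 2 in both DIG1 libraries. The others reached it in only 1 DIG1 library and so needed a GFP library to be listed. These others are AT1G30870, AT2G18980, AT3G21770, AT3G49960, AT4G11290, AT4G26010, AT4G30170, AT4G37530, AT5G17820, PER4, RHS18 and RHS19. Their falls are tied in part to the listing. Among all genes 8.03% were under a CPM of 2 in both DIG1 libraries and 2.24% in both GFP libraries. The authors' deposited table gave 40 members lower and 0 higher at an FDR under 0.05, beside 31.1% and 31.5% of all genes. Without DIG1 replicate 1, 40 members were called lower, without DIG1 replicate 2, 39, and without either GFP library, 32.

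**Figure D3:**
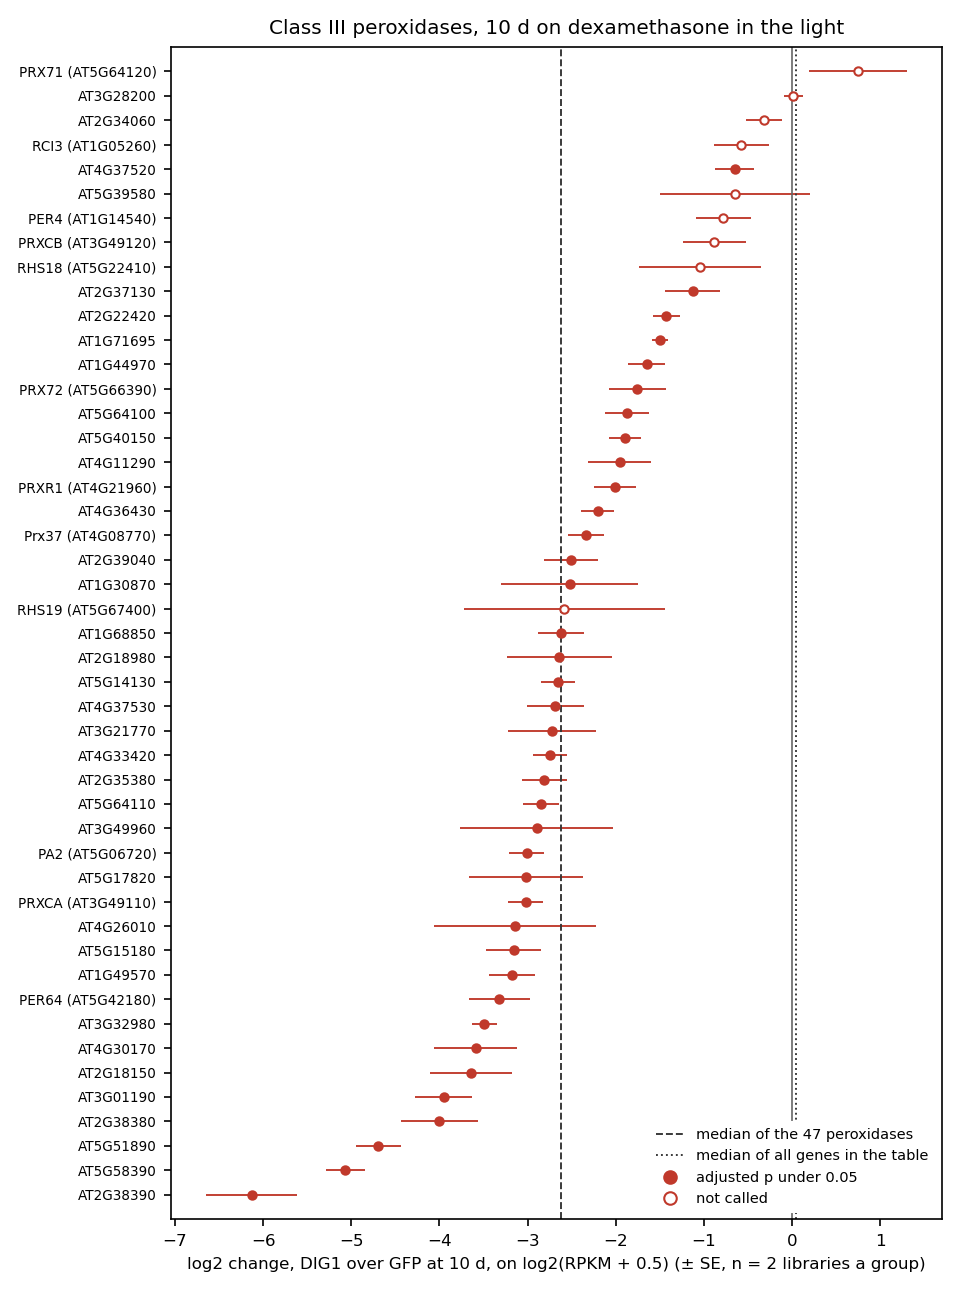
Log2 change of each of the 47 measured peroxidases at 10 d, DIG1 over GFP, on log2(RPKM + 0.5), with bars for the SE (n = 2 libraries a group; filled, limma adjusted p under 0.05). Of the listed members 45 lie left of 0, among them 17 that were listed through GFP alone, with a median of -2.62 (dashed) beside 0.05 for all genes (dotted), and PRX71 is at the far right at 0.74.

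Of the 6 members with the highest levels at 10 d, PRX71 was not called and is given further on, and the other members were lower in DIG1. PRXR1 stood at 259 and 171 RPKM in DIG1, against 950.3 and 755 in GFP, a log2 change of -2.01 ± 0.24 (limma adjusted p = 0.00165). AT3G32980 stood at 22.8 and 19.0 RPKM in DIG1, against 264 and 216 in GFP (-3.49 ± 0.14, limma adjusted p = 0.000225). In both genes the groups were far apart, and the replicates of PRXR1 in DIG1 differed more than those of AT3G32980. AT5G64100 was at 18.9 and 29.5 RPKM in DIG1, against 75.8 and 102 in GFP (-1.87 ± 0.25, limma adjusted p = 0.00238), and AT1G71695 at 26.1 and 28.4 RPKM, against 79.1 and 76.2 in GFP (-1.50 ± 0.09, limma adjusted p = 0.000363). AT2G37130, the leading member at 4 h, was at 22.6 and 11.7 RPKM in DIG1, against 39.8 and 33.1 in GFP (-1.13 ± 0.31, limma adjusted p = 0.0254). Leaving out either GFP library ended that call (up to 0.127). In GFP PRXR1 alone held 41.0% of the family's summed mean, and in DIG1 it held 37.0%.

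Of the members known from lignified cells, AT5G51890, PER64 and PRX72 were lower in DIG1 at 10 d. PRX71, also of lignification, was not called (104 and 127 RPKM in DIG1, against 37.0 and 125 in GFP). AT5G51890, annotated with the lignification of water-conducting tracheary elements in roots, stood at 1.44 and 0.691 RPKM in DIG1, against 36.6 and 41.1 in GFP (-4.69 ± 0.25, limma adjusted p = 0.000286). PER64 (AT5G42180), a peroxidase of the Casparian strip, was at 0.817 and 0.272 RPKM in DIG1, against 7.61 and 11.99 in GFP (-3.32 ± 0.34, limma adjusted p = 0.00112). PRX72 was at 8.01 and 4.52 RPKM in DIG1, against 17.2 and 27.0 in GFP (-1.76 ± 0.33, limma adjusted p = 0.00703). The groups did not overlap in AT5G51890, PER64 or PRX72. AT5G51890 and PER64 are among the members listed through GFP alone, so their direction was fixed, and the call of PRX72 held without any 1 library. In the same libraries 6 endodermis and Casparian strip markers summed to 18.3 and 13.3 RPKM in DIG1, against 42.5 and 62.6 in GFP, and none was at 0; their part in these results was not tested.

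Among the other large falls, AT2G38390 stood at 0.219 and 0.0456 RPKM in DIG1, against 74.7 and 25.0 in GFP, the largest fitted change of the family (-6.13 ± 0.52, limma adjusted p = 0.000675). Its neighbour AT2G38380 was at 7.57 and 3.15 RPKM in DIG1, against 112 and 66.5 in GFP (-4.0 ± 0.43, limma adjusted p = 0.0013). AT5G58390 was at 0 in both DIG1 libraries, against 19.5 and 13.5 RPKM in GFP. With 581 reads in GFP and a floor of 3 reads over both DIG1 libraries, it was at least 213-fold lower in DIG1. AT1G49570 was likewise at 0 in both DIG1 libraries, against 3.16 and 5.07 RPKM in GFP, which made it at least 63.0-fold lower from 172 GFP reads. The fitted values of these 2 genes, -5.07 and -3.17, depend on the pseudocount. Both already lie below the median over the members, -2.62, so setting them at their bounds could not move it. PA2 (AT5G06720), a wound-response peroxidase, had 2 reads in DIG1 and 151 in GFP, a ratio of 83.0-fold lower with a 95% counting interval of 22.6 to 692 (exact, Clopper-Pearson, on reads that are not independent molecules). AT5G14130 had 1 read in DIG1 and 100 in GFP, 110.0-fold lower with an interval of 19.3 to 4386. AT2G38390, AT5G58390, AT1G49570, PA2 and AT5G14130 were listed through GFP alone, so their direction was fixed. Their p-values, bounds and intervals support no direction.

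Further members by the size of their change were AT3G01190 at 4.23 and 1.95 RPKM in DIG1, against 47.3 and 57.5 in GFP, and AT2G18150 at 0.321 and 0 RPKM, against 11.7 and 4.75 in GFP. AT5G15180 was at 0.226 and 0 RPKM in DIG1, against 3.84 and 6.18 in GFP. Their log2 changes were -3.95 ± 0.32, -3.64 ± 0.47 and -3.16 ± 0.31 (limma adjusted p = 0.000644, 0.00214 and 0.000962), and AT3G01190 held its call without any 1 library, while AT2G18150 and AT5G15180 were listed through GFP alone. AT3G01190, one of the members with the root hair element, had been at 123 and 109 RPKM in DIG1, 135 and 169 in DIG2 and 149.99 and 144 in GFP at 4 h, where it did not pass the test in either line.

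Among the members listed at low or middle levels, Prx37 (AT4G08770), a peroxidase of vascular bundles, stood at 0.542 and 0.316 RPKM in DIG1, against 4.37 and 3.95 in GFP (-2.34 ± 0.21, limma adjusted p = 0.000739). AT4G33420 stood at 2.35 and 3.44 RPKM in DIG1, against 20.6 and 23.4 in GFP (-2.74 ± 0.19, limma adjusted p = 0.000457), and AT5G40150, the other intronless member, at 1.83 and 2.54 RPKM, against 8.95 and 9.82 in GFP. The DIG1 and GFP libraries were far apart in all 3. AT2G35380, whose promoter is printed above, had 0.0519 and 0.13 RPKM in DIG1, against 2.94 and 4.47 in GFP, from 1 and 3 reads in the DIG1 libraries. AT1G44970, AT1G68850, AT2G22420, AT2G39040 and AT4G36430 were also called lower, with log2 changes between -2.62 and -1.43. Of these members, Prx37, AT2G35380, AT1G44970, AT1G68850, AT2G39040 and AT4G36430 were listed through GFP alone and had to be lower. Their calls and p-values support no direction.

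Members of root hair cells split the DIG1 libraries. RHS19 stood at 6.26 RPKM in DIG1 replicate 1 and 0.0457 in DIG1 replicate 2, against 11.3 and 10.8 in GFP. RHS18 stood at 1.68 and 0 RPKM in DIG1, against 1.46 and 1.87 in GFP, and AT3G49960 at 3.15 and 0.0430 RPKM in DIG1, against 9.62 and 10.4 in GFP. DIG1 replicate 2 was at or close to 0 in all 3, and DIG1 replicate 1 lay within the GFP range in RHS18 and below it in the other two. RHS18 and RHS19 did not pass the test with both libraries (-1.04 ± 0.69 and -2.58 ± 1.14, limma adjusted p = 0.237 and 0.0993). Without DIG1 replicate 1 their log2 changes were -2.11 and -4.40, and without DIG1 replicate 2 that of RHS19 was -0.77. Such a fit holds 1 DIG1 library and cannot measure the spread within DIG1, so no call is drawn from it. AT3G49960 was called lower (-2.90 ± 0.87, limma adjusted p = 0.0334), a call lost without either GFP library (up to 0.13).

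In all, 10 of 47 members were more than 2-fold higher in DIG1 replicate 1 than in DIG1 replicate 2, beside 1.55% of all genes, and 1 (AT5G39580) was more than 2-fold higher in replicate 2. The 10 were RHS19, RHS18, AT3G49960, AT4G26010, AT1G30870, AT5G17820, AT2G18980, AT3G21770, AT4G30170 and AT2G38380. All 6 members called lower at 4 h in either line are among them, RHS19, AT1G30870, AT3G21770 and AT4G30170 in DIG1, and AT3G49960 and AT2G18980 in DIG2. AT4G26010 was at 3.28 and 0 RPKM in DIG1, against 11.0 and 12.3 in GFP (-3.14 ± 0.92, limma adjusted p = 0.0311), and AT4G30170 at 3.72 and 1.06 RPKM, against 33.7 and 27.5 in GFP (-3.59 ± 0.47, limma adjusted p = 0.00223). The call of AT4G26010 was lost without either GFP library. Of the 10 members, all but AT2G38380 reached a CPM of 2 in only 1 DIG1 library. Their falls against GFP, that of AT4G30170 included, are therefore tied in part to the listing. The summed root hair markers, at 28.9 and 1.29 RPKM, moved with these members, and their part in the result was not tested. In RNA from whole seedlings, fewer cells of a type and less RNA per cell cannot be told apart.

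**Figure D4:**
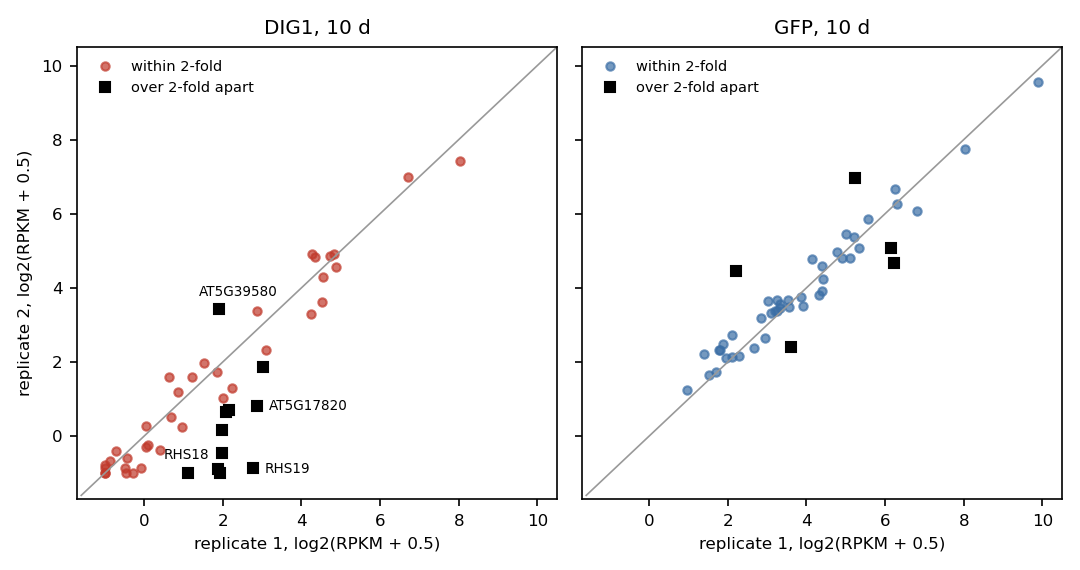
Replicate 1 against replicate 2 for each measured peroxidase at 10 d, as log2(RPKM + 0.5), in DIG1 (left) and GFP (right), with the line of equal values; black squares are more than 2-fold apart on this scale. Of the black squares in DIG1, 10 lie below the line, RHS19 farthest at 6.26 and 0.0457 RPKM, and 1 lies above it. Of those in GFP, 3 lie below and 2 above.

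A few members stood outside the fall at 10 d. PRX71 was at 104 and 127 RPKM in DIG1, against 37.0 and 125 in GFP, so the groups overlapped (log2 change 0.74 ± 0.56, limma adjusted p = 0.288). Without GFP replicate 2, the library at 125 RPKM, its log2 change was 1.62. That fit holds 1 GFP library and cannot measure the spread within GFP. In DIG1 it was second in the family with 19.8% of the summed mean, and in GFP it held 3.91%. AT3G28200, an intronless member, was at 27.9 and 29.8 RPKM in DIG1, against 26.7 and 30.5 in GFP (0.01 ± 0.11, limma adjusted p = 0.911), which puts the 2 groups within their own spread. AT2G34060 was at 6.87 and 9.86 RPKM in DIG1, against 9.50 and 11.4 in GFP (limma adjusted p = 0.221). RCI3 (AT1G05260), a cold-inducible cationic peroxidase, was at 18.3 and 9.26 RPKM in DIG1, against 21.1 and 18.4 in GFP (limma adjusted p = 0.164). Its log2 change was -0.58 with both DIG1 libraries and -1.05 without DIG1 replicate 1.

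PER4 and PRXCB, which rose in DIG1 at 4 h, were not called at 10 d. PER4 was at 1.32 and 1.78 RPKM in DIG1, against 2.14 and 4.14 in GFP (-0.78 ± 0.31, limma adjusted p = 0.0787), and PRXCB at 29.1 and 23.3 RPKM, against 70.5 and 33.3 in GFP (-0.88 ± 0.36, limma adjusted p = 0.0795). Both DIG1 libraries were below both GFP libraries in each. The log2 change was -1.19 for PER4 without GFP replicate 1 and -1.42 for PRXCB without GFP replicate 2, fits that hold 1 GFP library. The authors' deposited table has an FDR of 0.0206 for PER4 and 0.000974 for PRXCB. AT5G39580 ranged from 3.27 to 10.31 RPKM in DIG1 and from 4.12 to 21.3 in GFP and did not pass the test (limma adjusted p = 0.532). In both lines replicate 1 was the lower library, and with the replicate number as a block AT5G39580 was called lower (limma adjusted p = 0.0377). AT4G37520 was called just inside the threshold, at 19.7 and 27.8 RPKM in DIG1, against 31.7 and 43.3 in GFP (-0.65 ± 0.22, limma adjusted p = 0.0496), and it no longer passed when DIG1 replicate 1 or either GFP library was left out (up to 0.214).

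Neighbouring and closely related genes were unequal in their change at 10 d, and the ratio of their RPKM within each library shows it without reference to the scaling of libraries. AT4G37520 over AT4G37530, the pair whose coding starts are printed above, was 18.6 and 11.1 in DIG1, against 2.28 and 3.32 in GFP. At 4 h the same ratio was 2.74 and 2.93 in DIG1, 4.07 and 2.83 in DIG2 and 1.79 and 2.01 in GFP, above GFP in every DIG library. AT4G37530 itself was at 1.06 and 2.51 RPKM in DIG1 at 10 d, against 13.9 and 13.0 in GFP (-2.69 ± 0.32, limma adjusted p = 0.00172). PRXCB over PRXCA was 119 and 143 in DIG1, against 12.1 and 7.13 in GFP, since PRXCA, a wall peroxidase of elongation and defence like PRXCB, was at 0.245 and 0.163 RPKM, against 5.80 and 4.67 in GFP (-3.02 ± 0.20, limma adjusted p = 0.000419). AT2G38390 over AT2G38380 was 0.0289 and 0.0144 in DIG1, against 0.666 and 0.376 in GFP. At 4 h that ratio overlapped between the lines, at 1.15 and 1.65 in DIG1, 1.03 and 1.34 in DIG2 and 1.37 and 0.933 in GFP. PRXCA and AT2G38390 were listed through GFP alone and had to be lower at 10 d. The shift of their ratios at 10 d is therefore tied to the listing. AT4G37530 reached a CPM of 2 in only 1 DIG1 library, so the shift of its ratio is tied to the listing in part.

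On chromosome 5, AT5G64100, AT5G64110 and PRX71 lie in a row between 25650567 and 25661007 (TAIR10.1), with protein identities of 56.8% to 65.6%. PRX71 over AT5G64110 was 197 and 177 in DIG1 at 10 d, against 5.57 and 14.6 in GFP. AT5G64110 was at 0.527 and 0.718 RPKM in DIG1, against 6.63 and 8.57 in GFP (-2.85 ± 0.20, limma adjusted p = 0.000465). AT5G64110 was listed through GFP alone and had to be lower, so the shift of its ratio at 10 d is tied to the listing. At 4 h PRX71 over AT5G64110 was 1.48 and 1.69 in DIG1, 1.21 and 1.10 in DIG2 and 0.698 and 0.801 in GFP. The ratio was above GFP in every DIG library at both times. The difference between the genes of a pair was not tested.

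**Figure D5:**
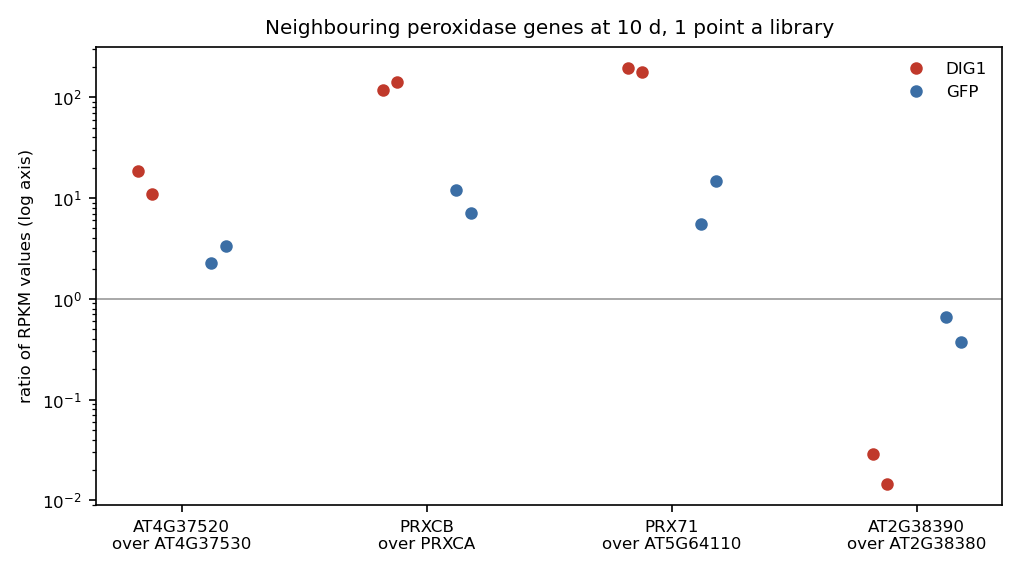
Ratio of the RPKM of neighbouring or closely related peroxidase genes in each 10 d library (log axis; 1 point a library, 2 libraries a group; grey line, equal values). In all 4 pairs the DIG1 points lie outside the GFP points, above them for AT4G37520, PRXCB and PRX71 and below them for AT2G38390. PRXCA, AT5G64110 and AT2G38390 were listed through GFP alone and had to be lower. AT4G37530 was listed partly through GFP.

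Genes that work with the peroxidases were read from the same fits. Of the NADPH oxidase genes, RBOHB was the sole one of 8 called lower in DIG1 and in DIG2 at 4 h, beside 5.54% and 7.48% of all genes. RBOHB was at 1.34 and 1.09 RPKM in DIG1, 0.882 and 1.06 in DIG2 and 2.23 and 2.73 in GFP. Its calls (-0.79 and -1.02, limma adjusted p = 0.0391 and 0.0099) were lost without any 1 library in DIG1 (up to 0.269) and without DIG2 replicate 1 or GFP replicate 2 in DIG2 (up to 0.0894). At 10 d, 5 of 6 were lower in DIG1, beside 31.2% of all genes, and 3 of the 5 (RBOHB, AT1G19230 and AT4G25090) were listed through GFP alone and had to be lower. RBOHB fell by 2.25, RHD2 (RBOHC), which root hair growth needs, by 2.20, AT4G25090 by 2.14 and AT1G19230 by 1.60 on the log2 scale. RBOH F, named after its values were seen, fell by 1.46. The calls of RHD2 and RBOH F held without any 1 library. The 3 lignin laccases, enzymes that oxidise monolignols with oxygen in place of peroxide, were all lower at 10 d, beside 31.2% of all genes, but 2 of them, LAC11 and LAC17, were under a CPM of 2 in both DIG1 libraries, were listed through GFP and had to be lower. LAC11 was at 0.207 and 0.0288 RPKM in DIG1, against 14.1 and 20.0 in GFP (-4.82 ± 0.25), LAC17 fell by 4.55 and IRX12 by 3.90 (limma adjusted p from 0.000257 to 0.000551). At 4 h none of the 3 laccases was called in DIG1 or DIG2, beside 5.54% and 7.48% of all genes called lower. In DIG1, 1 was lower at an unadjusted p, and voom called 0 in either line.

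Extensins and leucine-rich repeat extensins, wall proteins that peroxidases crosslink, were lower for 12 of 19 genes at 10 d, beside 31.2% of all genes, with a median log2 change of -2.45, beside 0.05 for all genes. EXT3 was at 123 and 81.7 RPKM in DIG1, against 726 and 586 in GFP, but by size of change the leading genes among those called were AT3G28550 (-3.45), AT1G23720 (-3.33), AT5G06630 (-3.18) and AT2G43150 (-3.16; 38.9 and 31.3 RPKM, against 309 and 323 in GFP). The first 3 of these 4 calls were lost without either GFP library (limma adjusted p up to 0.117), and the count ranged from 4 to 18 with 1 library left out and was 18 by voom. EXT3 is named here as the most abundant of them, after its values were seen. At 4 h 2 of 20 were lower in DIG1, AT4G08400 (-1.23) and AT3G24480 (-0.63), beside 5.54% of all genes. The median was -0.71, beside -0.003 for all genes. In DIG2 EXT13 was lower (-1.21) and AT1G26250 higher (0.75), beside 7.48% of all genes lower and 7.37% higher. None of the 4 passed with every choice of library left out (limma adjusted p up to 0.295).

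Root hair markers were lower for 5 of 10 genes in DIG1 at 4 h, beside 5.54% of all genes. Their summed level in DIG2 was 37.0 and 61.6 RPKM, and none was at 0 in any 4 h library. RSL4, a transcription factor that sets root hair growth, was at 1.40 and 1.03 RPKM in DIG1, 3.38 and 4.09 in DIG2 and 4.83 and 6.62 in GFP. It fell by 1.85 in DIG1 (SE 0.20, limma adjusted p = 0.00068), a call that held without any 1 library (up to 0.00931), and was lower in DIG1 than in DIG2 (-1.31, limma adjusted p = 0.0125, lost without DIG1 replicate 2 or DIG2 replicate 2). EXPA18, RHS12 and RHS13 fell in DIG1 (-1.57, -1.36 and -0.89 on the log2 scale), and each call was lost without at least 3 of the 4 libraries. In DIG2 limma called 0 of 10 (beside 7.48% of all genes lower), with 3 lower at an unadjusted p under 0.05 and 1 by voom. At 10 d, 5 of 9 were lower in DIG1, beside 31.2% of all genes, with EXPA18 and RHS12 listed through GFP alone. Among the 5 were XTH14 (-3.16), EXPA18 (-2.49), EXPA7 (-2.24) and RHS12 (-2.08). That count was 9 without DIG1 replicate 1, 7 without DIG1 replicate 2, 0 without GFP replicate 1 and 1 without GFP replicate 2.

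Of the endodermis and Casparian strip markers, limma called 0 of 8 in DIG2 against GFP at 4 h, beside 7.37% of all genes higher and 7.48% lower. Of the 8, 2 were higher both at an unadjusted p and by voom. At 10 d, 4 of 6 fell in DIG1, beside 31.2% of all genes, and 3 of the 4 were listed through GFP alone. Those that fell include CASP1 (-3.08 on the log2 scale) and CASP2 (-2.98), scaffold proteins of the strip, and ESB1 (-1.63), the last lost without GFP replicate 2 (limma adjusted p = 0.054). GSO1, a receptor kinase of the same barrier, rose by 0.66, a call lost without DIG1 replicate 1 or GFP replicate 1 (up to 0.0734).

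Of 4 regulators of peroxidase genes, UPB1, a bHLH factor known to repress peroxidases in the root tip, rose in every comparison with GFP. It was at 24.4 and 28.5 RPKM in DIG1, 43.3 and 30.4 in DIG2 and 17.4 and 14.1 in GFP at 4 h. At 10 d it was at 9.04 and 6.87 RPKM in DIG1, against 2.99 and 2.90 in GFP. Every DIG library was above the GFP libraries of its table. The log2 changes were 0.73 ± 0.17 in DIG1 and 1.19 ± 0.17 in DIG2 at 4 h and 1.28 ± 0.17 in DIG1 at 10 d (limma adjusted p = 0.0237, 0.00177 and 0.00253). The first call was lost without either DIG1 library or GFP replicate 2 (up to 0.171), and the other two held without any 1 library. AT5G47390 (KUA1), a MYB factor known to repress peroxidases in growing leaves, rose by 0.42 at 10 d (limma adjusted p = 0.0186, lost without DIG1 replicate 2 or GFP replicate 1, up to 0.0913). The other two, MYB36 and AGL15, did not pass the test in any comparison.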

How the data were processed

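Polyadenylated RNA of whole seedlings was sequenced (Illumina) from stranded libraries, per the labels' protocols. The authors deposited RPKM per gene and library, with their own log2 fold changes, p-values and FDR (q-values), in 1 table for 4 h and 1 for 10 d, per the file headers; HTSeq 0.5.4, edgeR 3.6.2 and TAIR10 are named in the submitters' processing notes. Columns of values left unmapped numbered 0. The tables were normalized separately and no test crosses them. Groups came from the sample titles.

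Here log2(RPKM + 0.5) was fitted with limma 3.58.1 (R 4.3.3, variance trend), on the 6 libraries at 4 h and the 4 at 10 d. Tests were two-sided, with Benjamini-Hochberg adjustment over every gene of a table. Fold changes are on that scale, which understates low genes. The fits were tested on simulated data. Whole reads were recovered from the RPKM steps for 99.9% of genes in each table (tolerance 0.001 of a read), which gave depths and a voom alternative. Replicates of a group correlated at 0.985 to 0.992 across genes and differed by more than counting noise.

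Named genes were the members called at 4 h, the 12 with the largest change at 10 d whose groups do not overlap, the 6 highest by level in each table, pairs of at least 85% protein identity, up to 4 called genes of each companion list and the genes of the lines. The values of 1 gene of the companion lists are not reported here. Other members are named to account for them, after their values were seen. The members and the 7 companion lists were chosen with earlier results of these data known. Sequences came from RefSeq TAIR10.1, read with Biopython 1.88.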

Additional observations from a re-analysis of the deposited data

Results flagged for a closer look

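AT4G11290 differed between the DIG lines at 4 h when DIG1 was set against DIG2 directly, by a log2 difference of -0.73 (limma adjusted p = 0.0166).

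In 7 of the 40 members in both tables (17.5%) both DIG1 libraries lay above GFP at 4 h and below it at 10 d, beside 5.55% of the 16393 genes in both tables. The opposite switch was seen in 0 members, beside 5.67% of these genes. At 10 d alone 89.4% of the listed members lay below GFP, beside 40.2% of all genes, so both shares are tied to that fall. The difference between the times was not tested because the tables were normalized separately. Age, light, dose and length of treatment all differ between the times and cannot be told apart. PER4 (AT1G14540) had a log2 change of DIG1 against GFP of 1.76 at 4 h and -0.78 at 10 d. PRXCB (AT3G49120) had 0.70 at 4 h and -0.88 at 10 d. AT4G37520 had 0.38 at 4 h and -0.65 at 10 d. In AT4G33420 the values were 0.32 at 4 h and -2.74 at 10 d, in RCI3 (AT1G05260) 0.21 and -0.58, in AT5G64100 0.18 and -1.87 and in PRX72 (AT5G66390) 0.13 and -1.76. Of these 14 changes, PER4, PRXCB and AT4G37520 passed the test at 4 h, and AT4G33420, AT4G37520, AT5G64100 and PRX72 passed it at 10 d.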

How the results depend on the processing

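No called member changed direction under any alternative run. The medians over the members moved by less than the spread between replicates. In DIG1 against GFP at 4 h, 4 members were higher and 4 lower. With no variance trend the counts were 2 and 1, and with 1 library left out they ranged from 1 to 2 and from 0 to 4. In DIG2 against GFP, 5 were higher and 2 lower. With no variance trend these were 3 and 1, with voom on recovered reads 4 were lower, and with 1 library left out they ranged from 3 to 4 and from 0 to 7. In DIG1 against DIG2, 0 were higher and 1 lower. Voom, and a fit on those groups alone, each called 1 higher, no variance trend called 0 lower, and leaving out 1 library gave 0 to 1 higher and 0 lower. At 10 d, with 38 lower and 0 higher, a pseudocount of 0.1 gave 34 lower, voom gave 39, and leaving out 1 library gave 32 to 40 lower and 0 to 1 higher, the 1 being PRX71 without GFP replicate 2. The cause of these shifts was not tested. A fit that left out a library at 10 d had an arm of 1 library, taken to vary like the rest. Replicate numbers gave little sign of pairing over all genes, which cannot exclude it for single genes. Deviations of same-numbered libraries correlated at 0.017 for GFP and DIG1, 0.163 for GFP and DIG2 and -0.009 for DIG1 and DIG2 at 4 h, and at 0.041 at 10 d. With the replicate number as a block, 7 members were lower in DIG1 at 4 h and 43 at 10 d. The voom fit was chosen after seeing the data. The planned count test on recovered reads with edgeR was not run. With 2 libraries a group, small changes are within reach of 1 library, and members near 0 in DIG1 at 10 d rest on few reads.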

Other observations

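Among other enzymes that remove or make hydrogen peroxide inside the cell, APX1, a cytosolic ascorbate peroxidase, was at 211 and 187 RPKM in DIG1, 121 and 177 in DIG2 and 286 and 296 in GFP at 4 h. It fell by 0.99 on the log2 scale in DIG2 (limma adjusted p = 0.00455), a call that held without any 1 library, and had a log2 change of -0.55 in DIG1 (limma adjusted p = 0.075). At 10 d it was at 252 and 279 RPKM in DIG1, against 605 and 575 in GFP, and fell by 1.15 (limma adjusted p = 0.000957). The DIG libraries were below GFP in every case.

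CSD1, a copper/zinc superoxide dismutase, was at 136 and 160.1 RPKM in DIG1 at 10 d, against 245 and 294 in GFP, and fell by 0.86 (limma adjusted p = 0.0047). CAT1, a catalase, was at 22.9 and 23.7 RPKM in DIG1, against 15.2 and 13.2 in GFP, and rose by 0.69 (limma adjusted p = 0.00428). These calls held without any 1 library, and that of CSD3 (0.26 higher) was lost without any 1. CAT2 and CAT3, also catalases, did not pass the test in DIG1 or DIG2 against GFP (limma adjusted p from 0.23 to 0.859). In all, limma called 2 of 7 higher and 2 lower at 10 d, shares near those of all genes (31.9% higher and 31.2% lower). At 4 h it called 1 of 7 lower in DIG2, APX1, beside 7.48% of all genes, and 0 of 7 in DIG1, beside 5.54%. In DIG1, 1 was lower at an unadjusted p under 0.05 and 1 by voom.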
